A study of Mus musculus with 6 samples.

Results

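The genes described here are the protein-coding genes of a segment of distal mouse chromosome 1 that were measured in hearts with and without the splicing factor SRSF4. Members are the protein-coding rows of the deposited table whose start, the lower coordinate on either strand, lies from 150 to 180 Mb on chromosome 1 (GRCm38). The rule leaves out Gas5, Sdhc, Hsd17b7, Olfml2b and genes whose symbol starts with Ifi20 or Mnda, which removed 9 of 180 rows, since Gas5 is not a protein-coding row. This gave 171 members of 12824 genes in the table. Pyhin1, Pydc3 and AI607873 remained as members under these symbols, although the reference annotation now names them Ifi209, Ifi208 and Ifi207. RNA was sequenced from 3 hearts per group of adult C57BL/6 mice aged 2 months. KO hearts carried SRSF4flox/flox together with NKx2.5-Cre, and control hearts carried SRSF4flox/flox alone, so the floxed allele is common to both groups and Cre is not. Nkx2-5 is active in the cardiac muscle lineage, so other heart cells can keep an intact Srsf4.

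Srsf4 had 10.8, 10.1 and 8.39 CPM (counts scaled to a common library size) in KO hearts 1 to 3 and 22.1, 23.5 and 23.7 CPM in controls 1 to 3, so the libraries followed their labels. The 6 cardiomyocyte markers, among them Myh6 and Ryr2, were present in every heart, with sums of 44091 to 46445 CPM in KO hearts and 44195 to 46178 CPM in controls. None of the 5 blood and red cell markers, globin genes and Alas2, was called by edgeR, DESeq2 or limma-trend or had an unadjusted p under 0.05, and their sums were 228 to 753 CPM in KO hearts and 429 to 575 CPM in controls. Libraries held 59810975 to 74941323 estimated counts. The second principal component of all genes set KO 1 at 34.7, away from KO 2 at -17.5 and KO 3 at -13.2. The library codes begin alike within each group and differ between the groups, so any effect of library preparation cannot be told apart from genotype.

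Distal chromosome 1 of the mouse is known for clusters of immune genes: the Fc gamma receptors, the SLAM family and the interferon-inducible Ifi200 genes lie close together there, next to genes of ion transport, metabolism and membrane traffic. It is also known in mouse genetics as a region where inbred strains differ in sequence and in expression of many genes. The labels give C57BL/6 for all 6 mice, and sequence variants within the segment were not analysed here.

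The segment was chosen by the difference between KO and control hearts that many of its genes showed in these same libraries. The same comparison therefore cannot be a test of it. Fold changes and calls of members are given as a description, without p-values. A gene is called when its adjusted p was under 0.05 in edgeR's quasi-likelihood test, fitted to all 12686 genes that passed the low-count filter and adjusted over all of them. "Rose" and "fell" are used for called genes. In bulk tissue, fewer cells of a type and less RNA per cell cannot be told apart.

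The 3 largest called falls with mean log2 CPM of at least 1 and a promoter entry in RefSeq (GRCm38.p6) were Casq1, Dusp23 and Pcp4l1. Their lower coordinates are 172.21, 172.63 and 171.17 Mb. The genes are not adjacent, since uncalled members lie between them. Their start regions are shown because of the size of the falls. Each runs 5′ to 3′ on the minus strand, from 250 bases before to 50 bases after the transcription start, at chr1:172219846-172220145, chr1:172632925-172633224 and chr1:171196219-171196518. Capitals mark matches on either strand to the TATA motif TATAAA, to the CCAAT motif of that spelling, or to the GC motif GGGCGG.
Casq1: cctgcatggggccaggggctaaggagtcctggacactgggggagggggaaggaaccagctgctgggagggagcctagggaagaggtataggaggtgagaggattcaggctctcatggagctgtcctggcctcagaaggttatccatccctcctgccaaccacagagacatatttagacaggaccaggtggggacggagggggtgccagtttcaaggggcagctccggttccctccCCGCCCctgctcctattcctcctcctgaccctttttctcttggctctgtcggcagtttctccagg
Dusp23: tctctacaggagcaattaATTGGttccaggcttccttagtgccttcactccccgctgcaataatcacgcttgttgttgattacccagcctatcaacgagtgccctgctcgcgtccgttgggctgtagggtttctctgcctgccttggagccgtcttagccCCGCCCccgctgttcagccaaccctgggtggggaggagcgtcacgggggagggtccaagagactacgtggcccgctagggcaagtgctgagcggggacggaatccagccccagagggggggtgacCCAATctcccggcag
Pcp4l1: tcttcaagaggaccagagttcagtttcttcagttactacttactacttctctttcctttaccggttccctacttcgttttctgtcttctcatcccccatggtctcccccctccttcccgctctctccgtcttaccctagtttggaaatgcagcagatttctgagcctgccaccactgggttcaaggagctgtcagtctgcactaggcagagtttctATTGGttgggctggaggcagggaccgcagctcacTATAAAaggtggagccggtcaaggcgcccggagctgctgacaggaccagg
The promoters of Casq1 and Dusp23 held GGGCGG, that of Dusp23 held CCAAT 2 times, and that of Pcp4l1 held CCAAT and TATAAA. Promoter entries were found for 135 members, 27 of them called. TATAAA stood in 18.5% of the called members' promoters, 8.89% of all members' and 13.6% of all 32851 promoters of 300 bases. CCAAT stood in 44.4%, 37.0% and 37.4%, and GGGCGG in 55.6%, 59.3% and 35.7%. A match is a description of these letters, not of a site or a cause.

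Of the 171 members, 170 passed the filter and 34 were called, 7 higher and 27 lower in KO hearts. This is 20.0% of tested members, where 6.03% of all 12686 genes were called; the members' share is what the segment was chosen for. Among other protein-coding genes of chromosome 1 the share was 8.38% of 525, and among those of other chromosomes 5.39% of 11451. Lower calls made up 15.9% of members, beside 2.74% of all genes, and higher calls 4.12%, beside 3.29%. A change of at least 2-fold was called for 16 members, 14 of them lower, while 2.42% of all genes reached that limit. The median absolute log2 fold change was 0.24 in members and 0.15 in all genes. The remaining 136 members had a median log2 fold change of 0.01. Among these 136, KO and control values did not overlap for 33 (24.3%, beside 27.2% of all genes), 25 of them lower in KO hearts. The count of 34 moved with single libraries: it was 67 without KO 1, 20 without KO 2, 21 without KO 3, and 13, 15 and 14 without controls 1, 2 and 3. Of all genes tested, 22.8% were called without KO 1 and 2.27% without control 1.

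**Figure D1:**
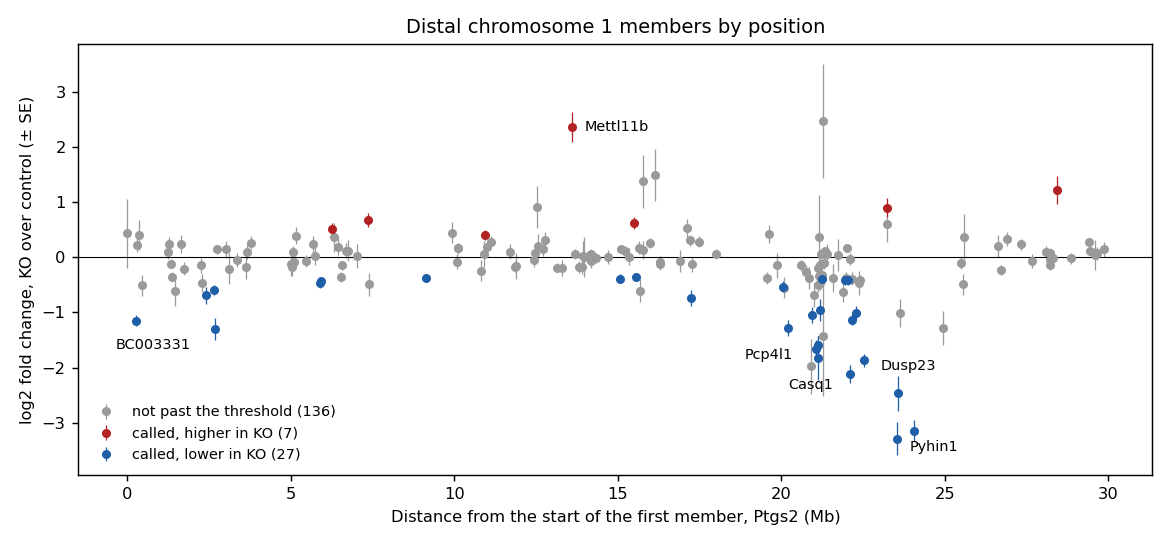
Log2 fold change of KO over control for the 170 tested members, with SE bars, against distance in Mb from the start of the first member, Ptgs2. Called members are blue (27 lower) or red (7 higher), and most of the blue points lie about 20 to 25 Mb along the axis.

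Calls were counted along the segment in bins of 5 Mb. In the bin that starts at 170 Mb 18 of 48 tested members were called (37.5%), 17 of them lower, and the median log2 fold change was -0.42. In this bin 39 of the 48 had a negative log2 fold change. In the first bin, from 150 Mb, 4 of 24 were called, all lower, and in the next 5 of 21, 3 lower and 2 higher. The bin from 160 to 165 Mb had 2 called of 31, both higher, and that from 165 to 170 Mb 4 of 24, 3 of them lower. In the last bin, up to 180 Mb, 1 of 22 was called (4.55%). Of all genes tested 6.03% were called. The order of these shares is part of what the segment was chosen for and was not tested.

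**Figure D2:**
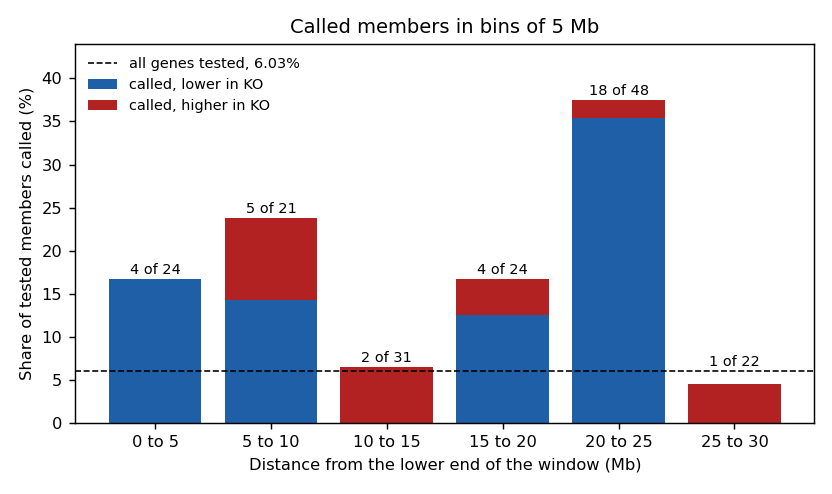
Share of tested members called in each bin of 5 Mb from the lower end of the window, split into lower (blue) and higher (red) in KO hearts. The dashed line is the 6.03% called among all genes tested, and the bin from 20 to 25 Mb reaches 37.5%.

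With narrower bins of 2 Mb the highest share among bins with at least 5 tested members was 9 of 18, from 172 to 174 Mb. From Uap1 (170.14 Mb) to Rgs7, a stretch set after its values were seen, 49 members were tested. Of these 17 fell (34.7%, beside 2.74% of all genes), 1 rose, and 12 fell at least 2-fold. Of all genes 2.42% were called at that size in either direction. From Fh1 (175.60 Mb) to the last member, Cdc42bpa, 21 members were tested and 1 was called (4.76%). That share is near the 6.03% of all genes. The members just inside the lower end were Ptgs2, with a log2 fold change of 0.43, and BC003331, with -1.15. The nearest protein-coding rows outside it were Pla2g4a at 149.83 Mb (-0.03) and, farther off, Rgs2 at 144.00 Mb (-0.43). At the upper end Ahctf1 (0.07) and Cdc42bpa (0.14) lay inside, and Adck3 (0.19) and Psen2 (-0.04) outside.

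Among 10 tested genes of ion transport, G proteins and calcium handling 3 fell and none rose (30.0% called, beside 6.03% of all genes). Their median log2 fold change was -0.27, beside -0.00 for all genes. The calls in this list were 6 without KO 1, 4 without KO 2 or KO 3 and 3 without any 1 of the controls. Casq1 (minus strand of chr1:172209894-172219868), the calsequestrin best known as the calcium buffer of skeletal muscle sarcoplasmic reticulum, had 5.31, 4.47 and 5.15 CPM in KO hearts and 18.2, 27.2 and 19.4 CPM in controls. Its fall was 4.34-fold (log2 fold change -2.12, SE 0.17), larger than the spread within either group. Atp1b1, a beta subunit of the sodium pump at 164.44 Mb, had 183 ± 17.7 against 184 ± 4.49 CPM (SD, n = 3 each) in KO and control hearts, with overlapping values.

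Nos1ap, an adaptor of neuronal nitric oxide synthase known from the genetics of the QT interval, had 3.15, 3.49 and 3.59 CPM in KO hearts and 9.31, 8.78 and 6.71 CPM in controls, a 2.42-fold fall. The KO hearts were close to each other and below every control. Pcp4l1, a small protein related to the calmodulin regulator PEP-19, had 72.8, 52.9 and 44.5 CPM in KO hearts and 172, 183 and 188 CPM in controls. It fell 3.19-fold (log2 fold change -1.67, SE 0.17). Rgs5, a regulator of G protein signalling abundant in pericytes, had 312 ± 44.3 against 403 ± 16.2 CPM without being called, and Rgs4, a relative in the same list, had 14.9 ± 3.37 against 11.1 ± 0.822 CPM. Of the 7 smooth muscle and pericyte markers Acta2 fell and the other 6 were not called, with sums of 415 to 540 CPM in KO hearts and 481 to 484 CPM in controls; their part in the Rgs5 value was not tested.

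**Figure D3:**
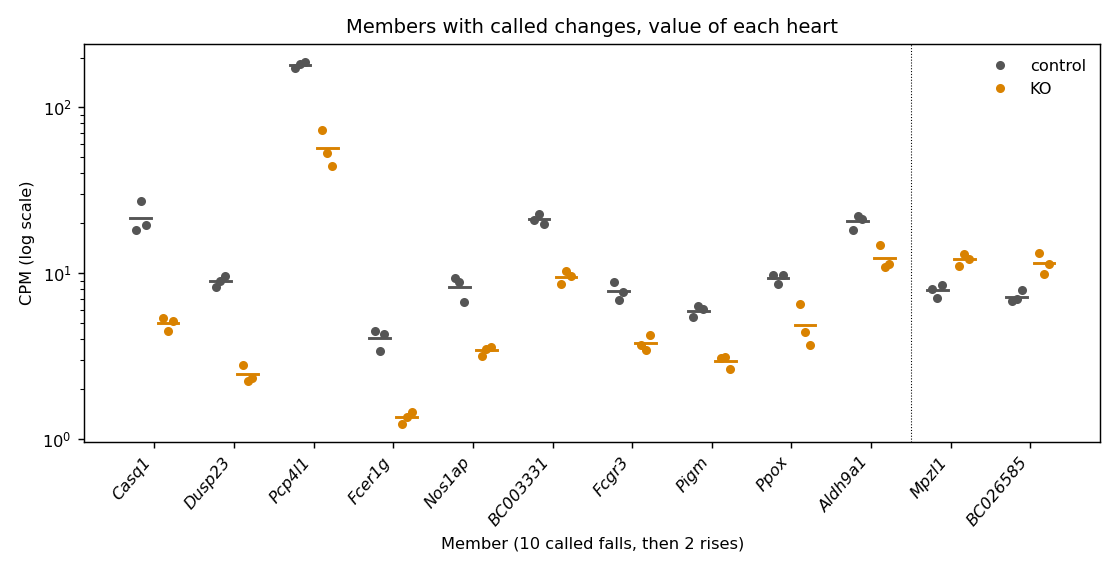
CPM of each heart on a log axis for 10 members with called falls (left of the dotted line) and 2 with called rises that the naming rule took. Dots are single hearts, bars are means of 3, and KO and control dots do not overlap for any of the 12 genes, as the rule requires.

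The leukocyte and immune list had 15 tested members, of which 4 fell and 1 rose (33.3% called, beside 6.03% of all genes). Its median log2 fold change was -0.38. The 5 calls became 6 without KO 1, 3 without KO 2, 4 without KO 3, and 2, 3 and 2 without controls 1 to 3. Fcer1g, the signalling gamma chain of Fc receptors, had 1.23, 1.35 and 1.45 CPM in KO hearts and 4.47, 3.38 and 4.29 CPM in controls, a 3.01-fold fall. Fcgr3, a low-affinity Fc gamma receptor that signals through that chain, had 3.68, 3.41 and 4.22 CPM in KO hearts and 8.81, 6.83 and 7.71 CPM in controls, a 2.06-fold fall. In both genes every KO heart lay below every control. Fcgr3 is uncertain in itself, since it shares 509 bases at 96.5% identity with the inhibitory receptor Fcgr2b, which had 3.24 ± 0.911 against 4.21 ± 0.242 CPM and was not called. Summed over the pair, KO hearts had 6.00, 6.66 and 8.36 CPM and controls 13.3, 10.9 and 11.8 CPM. The sums did not overlap between the groups. Fcgr4 had 8, 3 and 9 counts in KO hearts and 33, 13 and 35 in controls and was not called.

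Rcsd1, which encodes a protein that binds the actin capping protein CapZ, fell from 95.8 ± 1.99 to 74.5 ± 0.627 CPM. Aim2, a cytosolic sensor of DNA, was the listed gene that rose, to 1.16, 1.21 and 1.31 CPM from 0.645, 0.692 and 0.638 CPM in controls. Mr1, which presents microbial metabolites to T cells, had 7.04 ± 1.25 against 7.94 ± 1.39 CPM. The SLAM family members Cd48, Cd84 and Slamf9 were not called, with log2 fold changes of -0.38, 0.04 and -0.47. None of the 7 macrophage and monocyte markers in the table was called by edgeR, DESeq2 or limma-trend, and 1 had an unadjusted p under 0.05, with a median log2 fold change of -0.05, and none was at 0. Their sums were 146 to 187 CPM in KO hearts and 159 to 195 CPM in controls, with overlapping ranges. Of the 7, Ptprc, Csf1r, Cd163 and C1qa had negative log2 fold changes (-0.05, -0.35, -0.50 and -0.32), and Cd68, Mrc1 and Lyz2 positive ones (0.24, 0.29 and 0.02). Of 7 lymphocyte markers, Cd79b was the 1 measured, at 0.741 against 0.800 CPM. The part of any cell type in the immune values was not tested.

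Of the 3 members that the reference annotation names Ifi209, Ifi208 and Ifi207, 2 fell. Pyhin1, a HIN domain gene, had 9, 4 and 5 counts in KO hearts and 61, 58 and 61 counts in controls. Its log2 fold change was -3.29 (SE 0.30), the largest fall among the 170 tested members. Pydc3 had 7, 12 and 16 counts against 82, 53 and 64 counts and fell as well. AI607873, which has a near-identical copy in Ifi204, had 2.25 ± 0.784 against 4.54 ± 0.802 CPM and was not called. The 3 genes start between 173.63 and 173.72 Mb, after Aim2, which rose.

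Per kilobase of exon, controls had 154 ± 10.8 CPM of Mgst3, a microsomal glutathione transferase, and 125 ± 3.93 of Fh1, the fumarase of the citric acid cycle. KO hearts had 140 ± 25 and 117 ± 15.6 CPM per kilobase, and neither gene was called. On the same scale Pcp4l1 fell from 115 ± 5.22 to 36.0 ± 9.22 CPM per kilobase. Glul, the glutamine synthetase gene, had 362 ± 32.1 against 302 ± 37.4 CPM and was not called. Of 18 tested members in the list of mitochondria and central metabolism, 4 fell and 1 rose (27.8% called, beside 6.03% of all genes). The calls in this list were 9 without KO 1, 0 without KO 2, 1 without KO 3 and 0 without any 1 of the controls.

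Aldh9a1, an aldehyde dehydrogenase of carnitine synthesis, had 14.7, 10.9 and 11.3 CPM in KO hearts and 18.3, 22.1 and 21.3 CPM in controls, a 1.67-fold fall. Ppox, the protoporphyrinogen oxidase of haem synthesis, had 6.52, 4.39 and 3.65 CPM in KO hearts and 9.73, 8.62 and 9.77 CPM in controls. Its KO values were more scattered than its controls, but all lay below them. Ppox is uncertain because it overlaps B4galt3 on the other strand, and whether counting used strand is not stated. Uap1, which makes UDP-N-acetylglucosamine, fell 1.46-fold, and Nit1, a nitrilase-like amidase, 1.32-fold. Zbtb37, the member before Gas5, had 1.49 ± 0.287 against 1.43 ± 0.346 CPM. Among redox, xenobiotic and lipid enzymes 1 of 11 was called (9.09%, beside 6.03% of all genes). This was the apolipoprotein gene Apoa2, which fell, with 4, 5 and 4 counts against 15, 12 and 20 counts. No gene of that list was called when KO 2, KO 3 or any 1 control was left out, and 5 were called without KO 1. Pex19, a chaperone of peroxisomal membrane proteins, had 121 ± 3.57 against 108 ± 4.21 CPM. Prdx6, a peroxiredoxin, had 152 ± 16.9 against 125 ± 5.46 CPM and was not called.

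Dusp23, a small dual specificity phosphatase, had 2.78, 2.23 and 2.32 CPM in KO hearts and 8.25, 9.0 and 9.58 CPM in controls, a 3.65-fold fall (log2 fold change -1.87, SE 0.12). In the list of signalling, ubiquitin and cytoskeleton genes 5 of 29 fell and 1 rose (20.7% called, beside 6.03% of all genes). These 6 calls became 12 without KO 1, 3 without KO 2, 1 without KO 3, and 1, 2 and 1 without controls 1 to 3. Beside Dusp23 the falls were small, 1.62-fold for Rgl1, an exchange factor for Ral, and 1.51-fold for Arpc5, a subunit of the Arp2/3 complex. The CUL4 ligase receptor Dcaf8 fell from 128 ± 6.49 to 95.1 ± 4.01 CPM and the ubiquitin ligase Rfwd2, named Cop1 in the reference, from 60.6 ± 2.06 to 46.9 ± 0.847 CPM. Dcaf6, another CUL4 receptor, had 66.7 ± 6.35 against 61.6 ± 4.57 CPM and was not called. Kif26b, a kinesin family member, was the gene that rose, with 1.62, 3.10 and 2.81 CPM against 1.07, 1.16 and 0.988 CPM. Its KO hearts were spread widely, with KO 1 closest to the controls.

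Genes of the endoplasmic reticulum, Golgi and vesicle traffic had 4 called of 20, all lower (20.0% called, beside 6.03% of all genes). The calls in this list were 8 without KO 1, 1 without KO 2, 2 without KO 3, 0 without control 1 or control 2 and 1 without control 3. Tor1aip1 and Tor1aip2, which encode membrane partners of torsin ATPases, overlap on opposite strands. Tor1aip1 had 54.9 ± 2.26 against 76.0 ± 6.15 CPM and Tor1aip2 29.8 ± 0.609 against 40.3 ± 0.363 CPM. Ncstn, the nicastrin subunit of gamma secretase, fell from 34.2 ± 0.678 to 25.6 ± 2.02 CPM, and Sft2d2, a vesicle transport gene, from 25 ± 0.927 to 19.1 ± 1.32 CPM. Copa, a coatomer subunit that overlaps Ncstn, and Atf6, a sensor of unfolded protein, had log2 fold changes of -0.37 and -0.15 and were not called.

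Among the 10 tested extracellular matrix and secreted members edgeR called none, nor did DESeq2 or limma-trend, and 3 had an unadjusted p under 0.05. Among the 23 tested members of transcription, chromatin and RNA edgeR and limma-trend called none, DESeq2 called 1, and 4 had an unadjusted p under 0.05. Over all genes edgeR called 6.03%, a share at which lists this small would hold few calls. Without KO 1, edgeR called 2 genes of the former list and 4 of the latter. By single rows, with duplicate entries of a gene not summed, the most counted of the latter were Tpr, Rxrg and Ivns1abp. The nuclear pore protein gene Tpr had 114 ± 14.1 against 98.2 ± 13 CPM. For the retinoid receptor gene Rxrg the values were 53.5 ± 5.12 against 44.1 ± 4.11 CPM. Ivns1abp, an influenza NS1 binding protein gene, had 893 ± 134 against 836 ± 95.0 CPM. Lamc1, the laminin gamma 1 chain, had 51.9 CPM in KO 1 but 116 and 107 CPM in KO 2 and KO 3, beside 106, 118 and 93.4 CPM in controls. The value of -0.21 on the log2 scale turned to 0.08 once KO 1 was left out. The fibroblast markers, 0 of 6 called by edgeR, DESeq2 or limma-trend and none with an unadjusted p under 0.05, summed to 283 CPM in KO 1 and 614 and 530 CPM in KO 2 and KO 3; their part in the Lamc1 values was not tested. Fam20b, a xylose kinase of proteoglycan synthesis, had 68.7 ± 2.06 against 76.3 ± 4.55 CPM. Dpt, encoding the matrix protein dermatopontin, had 50.2 ± 4.90 against 50.1 ± 7.94 CPM. Of 8 tested adhesion and surface members 1 was called (12.5%, beside 6.03% of all genes). This was Mpzl1, an immunoglobulin domain receptor, which rose, with 11, 13 and 12.2 CPM against 8.05, 7.09 and 8.42 CPM (1.54-fold). No listed adhesion gene was called when KO 2, KO 3 or any 1 control was left out, and 3 were called without KO 1. The junction protein gene F11r (39.1 ± 2.55 against 36.2 ± 2.17 CPM) and the collagen receptor gene Ddr2 (17 ± 5.2 against 18.9 ± 1.30 CPM) were not called. Selp, the member that did not pass the filter, had 4 to 5 counts in KO hearts and 5 to 17 in controls.

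Members outside the 9 role lists held 9 of the calls, among 26 tested (34.6%, beside 6.03% of all genes). Pigm, a mannosyltransferase of the GPI anchor pathway at 172.38 Mb, had 3.08, 3.09 and 2.63 CPM in KO hearts and 5.44, 6.28 and 6.06 CPM in controls, a 2.02-fold fall. BC003331, named Odr4 in the reference and 20 Mb away from that cluster, had 8.55, 10.3 and 9.64 CPM in KO hearts and 20.8, 22.8 and 19.8 CPM in controls. It fell 2.23-fold while its overlapping neighbour Tpr on the other strand was not called. 1700009P17Rik, named Cfap126 in the reference and the nearest member before Sdhc, had 0.518 ± 0.0924 against 0.840 ± 0.0918 CPM and was not called. BC026585, named Cryzl2 in the reference, rose 1.59-fold, with 13.2, 9.85 and 11.4 CPM against 6.78, 6.97 and 7.87 CPM. Mettl11b, an N-terminal methyltransferase gene below the level the naming rule asks for and chosen after its values were seen, had the largest called rise, with 1.30, 1.83 and 1.38 CPM against 0.232, 0.252 and 0.399 CPM (5.13-fold). Gm2000 rose 1.42-fold but has a near-identical copy in the ribosomal protein gene Rpl35, so its value is uncertain.

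Over the 27 called falls, the median log2 distance from the control mean was -1.02 in KO 1, -1.03 in KO 2 and -0.98 in KO 3, and -0.01, 0.01 and 0.03 in controls 1 to 3. Summed, these 27 genes had 943, 908 and 847 CPM in KO hearts and 1720, 1728 and 1662 CPM in controls. KO 1, which stood apart in the principal components, did not stand apart in this sum. The 27 genes were called with KO 1 in the fit, and none had overlapping values. The likeness of the KO hearts in them therefore comes in part from the selection. Over all tested members KO 1 did differ, being the lowest of the 6 hearts for 66 of 170 genes, beside 34 for KO 2 and 18 for KO 3. The median SD within a group, in log2 CPM, was 0.14 in KO hearts and 0.11 in controls for the called falls. Over all tested members it was 0.19 and 0.11. The sizes of these falls ranged from 1.29-fold to 9.79-fold: 9 were under 1.5-fold, 4 from 1.5-fold to 2-fold, 10 from 2-fold to 4-fold and 4 were larger.

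**Figure D4:**
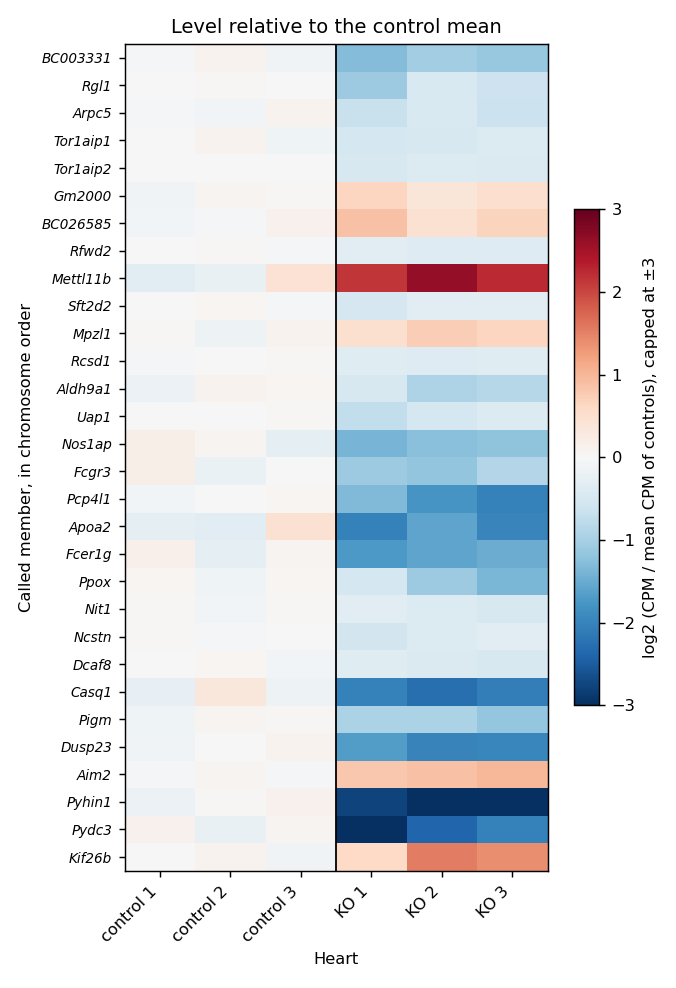
Level of 30 of the 34 called members in each heart, as log2 of CPM over the mean CPM of controls, in chromosome order and capped at ±3. Columns are the 3 controls and the 3 KO hearts, and in each row the KO hearts share one direction, which selection by call favours.

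KO and control values did not overlap for 67 of 170 members (39.4%), 52 of them lower in KO hearts, beside 27.2% of all genes and 13.5% for lower alone. Of the 34 called members 15 lie on the plus and 19 on the minus strand, and of all 171 members 80 and 91. Of the called members 9 overlap another row of the table, among them Nit1 with Dedd and Aim2 with Cadm3 on opposite strands, so reads of such pairs may not be told apart. The called genes had a median exonic length of 4.31 kb, and the 168 members with annotated exons 5.37 kb. By the authors' deposited table, an adjusted p under 0.05 was given to 37 members, 30 of them lower. This stands beside 825 genes of the whole table (6.43%). Of the 37 members 27 were also called here, and 7 members called here were not among the 37.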

How the data were processed

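Total RNA from the 6 hearts was made into libraries after poly(A) selection, per the labels' protocols, which favours polyadenylated RNA. Per the submitters' processing notes the build was GRCm38, and RSEM 1.17, Picard, cutadapt and edgeR were among the tools. The sources used here do not give the aligner, annotation release or strand setting. The deposited raw values are whole numbers and were taken as the authors' estimated counts, rounded. The authors deposited beside them a normalized signal, in which each library is multiplied by 1 factor, and a log2 fold change, a signed fold change kept as a score, and p-values.

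Counts were tested with edgeR 4.0.16 (R 4.3.3): TMM factors, default filter by group, robust quasi-likelihood fit, all 6 libraries, Benjamini-Hochberg adjustment over 12686 genes; 138 were filtered out. SE is the absolute log2 fold change over the square root of F. Library totals of 59810975 to 74941323 estimated counts set the depth, and precision is limited by 3 hearts per group; the common biological coefficient of variation was 13.6%. Per the series design, each library is from a different heart. In simulated data for 12670 genes, 55.2% of genes changed 1.5-fold and 100% of those changed 2-fold were called. All genes were simulated with the same biological variation, and no outlying library was simulated. The shares therefore do not hold for more variable genes. Members past 2-fold in the real data could be uncalled, such as Rgs7 (2.44-fold) and Fcgr4 (3.95-fold). Copies were sought with blastn 2.17.0 on GENCODE M21 transcripts (90% identity, 200 bases, 50% of the shorter).

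The segment, the role lists and the markers were chosen with earlier results of these data known. Named were called members with mean log2 CPM of at least 1 and no overlap (12 largest falls and rises; 3 rises qualified), the 3 most counted members of each list, the 2 rows inside and outside each window end, the neighbours of the left-out genes, and Srsf4. Some members that this rule takes are not reported here by name but remain in every count. Members named beyond this, such as the other called genes, were chosen after their values were seen. Alternatives were DESeq2 1.42.0, limma-trend (limma 3.58.1), scaling by RLE or by totals, other filters, a replicate block, left-out libraries and stricter thresholds. Chosen after seeing the data were the authors' own factors, summing of duplicate entries, leaving out copies, and leaving out Pyhin1, Pydc3, AI607873 and Aim2.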

Additional observations from a re-analysis of the deposited data

How the results depend on the processing

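The 34 member calls ranged from 13 to 67 when 1 library was left out, with 1 to 24 higher and 12 to 43 lower, and the counts over all genes were 288 to 2896. All 34 kept their sign in these 6 fits, which their lack of overlap between KO and control values largely fixed in advance. Of the 170 tested members 13 were called in all 6 fits, beside 258 of all 12686 genes. The 13 were Mettl11b, which rose, and 12 that fell. Among the 12 were BC003331, Nos1ap, Fcgr3, Pcp4l1, Fcer1g, Casq1, Pigm, Dusp23, Pyhin1 and Pydc3. Members of the role lists called numbered 6 to 55 in place of 25. At an adjusted p of 0.01, 15 members were called (1 higher, 14 lower), 8 of them in role lists, and 291 genes in all. With a limit of 2-fold, 16 were called (2 higher, 14 lower), 9 of them in role lists, and 307 genes in all. Scaling by totals alone moved the median gene's log2 fold change from -0.0032 to -0.1408 and that of members from -0.07 to -0.21; 46 members (41 lower) and 1163 genes were then called, and the log2 fold changes of Dpt (-0.13), F11r (-0.02), Ivns1abp (-0.04), Dcaf6 (-0.02), Ahctf1 (-0.07) and Zbtb37 (-0.08) changed sign. DESeq2 called 46 members (36 lower) and 1455 genes. With a replicate block, 24 members (19 lower), 16 in role lists (0 in the list of endoplasmic reticulum, Golgi and vesicle traffic), and 505 genes were called; the numbers do not pair the hearts, since same-numbered deviations correlated at -0.064, 0.151 and -0.256, and 1 of the 3 KO hearts correlated best with the control of its own number. RLE, limma-trend, no filter, the authors' factors and summed duplicate entries gave 34 or 35 member calls, and the filter on CPM 31 of 157 tested. A window narrower by 5 Mb at each end held 29 called members of 124 tested. Members without an overlapping row held 25 of 127, and those without a near-identical copy 33 of 166. Without Pyhin1, Pydc3, AI607873 and Aim2 the calls were 31 of 166. Bins of 10 Mb gave a highest share of 27.1% in place of 37.5%. Without overlap under total counts there were 75 members in place of 67. In fits without 1 library the log2 fold changes of genes that were not called crossed 0: Atp1b1 -0.08 to 0.06, Lamc1 -0.41 to 0.08, Dpt -0.06 to 0.14, Ddr2 -0.31 to 0.08, Pla2g4a -0.35 to 0.36, Ptgs2 -0.63 to 0.87, Ahctf1 -0.01 to 0.17, Psen2 -0.11 to 0.00 and Zbtb37 -0.12 to 0.21. Causes of these shifts were not tested. Depth limits members with few counts, such as Pyhin1, Pydc3, Apoa2 and Fcgr4 with 3 to 16 counts per KO heart and Selp with 4 to 5.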

Other observations

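The window also holds 12 rows other than protein-coding genes and Gas5, of which 10 were tested and 3 called, where 6.03% of all genes were called. Gm5532, a long intergenic RNA at 155.52 Mb, rose, with 85.8, 104 and 93.7 CPM in KO hearts and 60.3, 55.5 and 57.0 CPM in controls (log2 fold change 0.71, SE 0.09). The unnamed intergenic RNA ENSMUSG00000100594 at 151.75 Mb fell, with 0.244, 0.264 and 0.193 CPM against 1.46, 1.64 and 1.51 CPM (log2 fold change -2.71, SE 0.20). The intergenic RNA 3110045C21Rik, which starts at 169.97 Mb and whose end overlaps that of Ddr2, had 3, 0 and 0 counts in KO hearts and 14, 21 and 16 counts in controls. The antisense row Gm16586 was not called, with 6.60 CPM in KO 1, 1.85 and 1.84 CPM in KO 2 and KO 3, and 5.49, 4.92 and 6.34 CPM in controls.

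Arhgap30, a GTPase activating protein gene of blood cells, is listed beside an unnamed entry at the same place that the table describes as the same protein, ENSMUSG00000100327. Arhgap30 had 135, 165 and 4 counts in KO hearts and 36, 16 and 5 counts in controls, and the unnamed entry had 7, 0 and 162 counts against 192, 132 and 135 counts. Where one entry was high the other was low in the same heart. Summed over the pair, KO hearts had 2.03, 2.56 and 2.46 CPM and controls 2.94, 2.33 and 2.23 CPM, a log2 fold change of -0.09 (SE 0.16). The log2 fold changes of 2.47 and -1.42 of the separate entries thus do not describe the locus. For Pou2f1, a POU domain transcription factor, 0.300 ± 0.109 against 0.116 ± 0.0647 CPM became 7.77 ± 1.77 against 6.95 ± 0.625 CPM when its unnamed entry was added.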
